A study of Zea mays with 16 samples.

Results

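The dehydrin gene Zm00001d033483 of maize was followed across guard cells and subsidiary cells of the leaf, by day and by night. It is 1 gene of the 38179 listed in the deposited table, and 37759 of those genes, this dehydrin among them, passed the filter on low values (at least 10 normalized counts in at least 4 libraries). It was chosen for its difference between guard and subsidiary cells by day, so every value that rests on the day libraries is a description and carries no test here. It was chosen with results of all 16 libraries known, so the night values, for which tests are given, are not independent of the choice either, and their p-values are no independent support. The gene's description begins with the word Dehydrin, the first word being the portion of the description used here. No coordinates or sequence of the gene are given, since the identifiers of the table matched 0 entries of the reference gene table.

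All 16 libraries came from plants of the maize inbred line B104. The groups differ in cell type and in time, and with time also in light and temperature. Seedlings were 2 weeks old and grew at 25 °C during 16 h of light and at 22 °C during 8 h of darkness. Guard cells by day (2 h after light onset), guard cells by night (2 h after light offset), subsidiary cells at the same day point and subsidiary cells at the same night point gave 4 libraries each, taken in 4 collections. The sample titles of the subsidiary cell night group hold a word that looks like day, but its treatment label and its library names give night, and every night and every subsidiary cell comparison below rests on that reading. Each library pooled laser-cut cells, 2 tubes of about 1500, from peeled and freeze-dried epidermis of leaf 3. Because each library holds the RNA of many cells, a change in the share of cells that use a gene and a change in its RNA per cell cannot be told apart.

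Dehydrins belong to the late embryogenesis abundant (LEA) proteins, very hydrophilic and largely unfolded proteins that accumulate in seeds and in leaves that lose water, and they are known for protecting membranes and other proteins during drying and cold. Many dehydrin genes respond to abscisic acid, the hormone that closes stomata when water is short. Guard cells open and close the stomatal pore by swelling and shrinking, and in grasses the subsidiary cells on either side exchange ions and water with them.

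Libraries held 16.6 to 28.9 M reads as recovered from the normalized counts (median 22.2 M). Guard cells by night replicate 4 and subsidiary cells by day replicate 1 stood apart from the rest, with mean Spearman correlations with the other 15 libraries of 0.648 and 0.676, against 0.713 to 0.764 for the other 14. The dehydrin's levels, spread and differences are given with and without them. Markers of guard cells could not be told from the first words of the descriptions, so the guard cell label could not be checked in that way. Genes named for other cell types were summed instead. Together 36 mesophyll genes took 0.159% to 0.336% of the reads in guard cells by day and 0.0177% to 0.0716% by night. In subsidiary cells they took 0.0646% to 0.198% by day and 0.0393% to 0.0705% by night. This list was planned on names such as carbonic anhydrase, phosphoenolpyruvate carboxylase and chlorophyll a-b binding. Whether such reads came from mesophyll or from the guard and subsidiary cells themselves was not tested. A set of 5 bundle sheath genes took 0.0383% to 0.131% in guard cells by day and 0.00840% to 0.0630% by night, against 0.00563% to 0.0475% and 0.00905% to 0.0188% in subsidiary cells. For 28 epidermal wax genes the ranges were 0.0342% to 0.0670% and 0.0237% to 0.0684% in guard cells, against 0.0696% to 0.138% and 0.0679% to 0.0850% in subsidiary cells, and for 17 vascular genes all libraries lay between 0.0108% and 0.0506%. None of these genes was at 0 in all libraries of any group.

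Transcripts of the dehydrin were most abundant in guard cells by day, lower on average in guard cells by night, and lowest in subsidiary cells at both times. Its normalized counts were 13266, 10932, 20330 and 11657 in the 4 libraries of guard cells by day. In guard cells by night they were 5037.7, 10931, 5009.8 and 845.89. In subsidiary cells they were 707.89, 2391.2, 1420.3 and 686.73 by day, and 708.57, 947.71, 1556 and 2913 by night. The 4 libraries of guard cells by day were thus the 4 highest of all 16, although the highest guard cell library of the night lay about 1 normalized count under the lowest of the day. The remaining guard cell libraries of the night lay between the day libraries and the subsidiary cells, except replicate 4, which fell inside the range of the subsidiary cells. Recovered reads of the gene ran from 519 to 22488 per library, and how many separate molecules they stand for is unknown, since the kit adds no molecular identifiers.

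**Figure D1:**
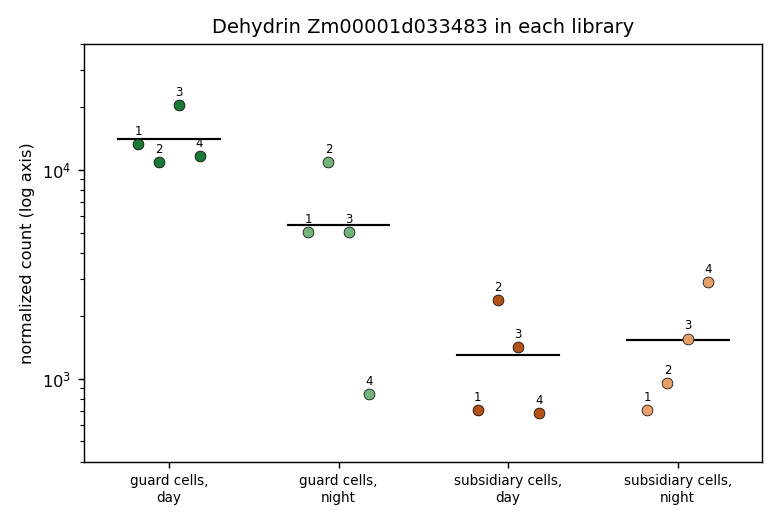
Normalized counts of the dehydrin Zm00001d033483 on a log axis, 1 point per library with its replicate number, and a line at the mean of each group (n = 4). The 4 libraries of guard cells by day lie between 10932 and 20330, while guard cells by night spread from 845.89 to 10931 and subsidiary cells reach at most 2913.

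Averages were 14047 ± 4301 in guard cells by day, 5456 ± 4148 in guard cells by night, while subsidiary cells averaged 1302 ± 802 by day, 1531 ± 988 by night (SD, n = 4 each). As reads per 1 M recovered reads the gene averaged 654 ± 254 in guard cells by day, 278 ± 208 in guard cells by night, while subsidiary cells had 54.1 ± 31.4 by day, 79.0 ± 48.7 by night. In the order of the averages, the ranges of the groups next to each other met or overlapped: guard cells by day and by night were separated by about 1 normalized count, and the absence of overlap in that direction held for 3.49% of the genes tested, guard cells by night overlapped subsidiary cells by night through replicate 4, and the groups of subsidiary cells overlapped over most of their range. The coefficient of variation was 30.6% in guard cells by day and 76.0% in guard cells by night, and in subsidiary cells it was 61.7% by day, 64.5% by night. Without replicate 4 it was 48.8% in guard cells by night (n = 3), and without replicate 1 it was 57.0% in daytime subsidiary cells (n = 3).

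By day the average in guard cells was 10.8 times that in subsidiary cells, and the difference of mean log2 values was 3.59 ± 0.62 (SE), or 3.36 ± 0.68 (SE) without subsidiary cells by day replicate 1. The groups did not overlap, which also held, in the direction of guard cells, for 4.27% of the genes tested. This is the contrast the gene was chosen on, so nothing is read from it. Of all genes tested, 304 had a larger difference in this direction. The 36 markers of mesophyll had a median difference of 1.23 by day, 0 of them called by limma-trend, beside 1.34% of all genes. Those of bundle sheath had a median of 3.03 over 5 genes, 1 of them called. The part of either set of markers in the dehydrin's difference was not tested.

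By night the average in guard cells was 3.56 times that in subsidiary cells, a difference of 1.56 ± 0.62 (SE) in mean log2 value, with a 95% confidence interval of 0.26 to 2.87. In 3 of the 4 guard cell libraries the dehydrin was above all 4 subsidiary cell libraries. The difference did not pass the test across all genes: its adjusted p was 0.448 (limma-trend, Benjamini-Hochberg over all genes tested), from an unadjusted p of 0.0214. The two-sided exact permutation test over the 8 night libraries gave p = 0.171, where 4 libraries against 4 can reach 0.0286. Few genes passed by night, 11 in all or 0.0291% of those tested, so the count of calls by night was low across the whole table. The difference of this gene was larger than that of 94.1% of the genes tested.

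The night value moved most with 2 libraries. Without guard cells by night replicate 4, the other 3 guard cell libraries averaged 6993 ± 3411 normalized counts (SD, n = 3) at 4.57 times the average of the 4 subsidiary cell libraries. All 3 lay above those 4, as did the libraries of 5.29% of the genes tested. The log2 difference was then 2.30, with an adjusted p of 0.0577 in limma-trend, where 0.305% of all genes were called, and the exact permutation p was 0.0571, the smallest that 3 libraries against 4 can give. With subsidiary cells by day replicate 1 left out as well, the log2 difference was again 2.30 and the adjusted p was 0.0438 by limma-trend. The gene was thus called in that setting, together with 0.453% of the genes tested. That setting was added after seeing the data, and in no other setting was the gene called by night. Leaving out guard cells by night replicate 2, the highest guard cell library of the night, gave the smallest difference, 1.07. By night the median difference was -0.14 over the 36 mesophyll genes and 1.47 over the 5 bundle sheath genes, 0 of either called, and the part of either in the dehydrin's difference was not tested.

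**Figure D2:**
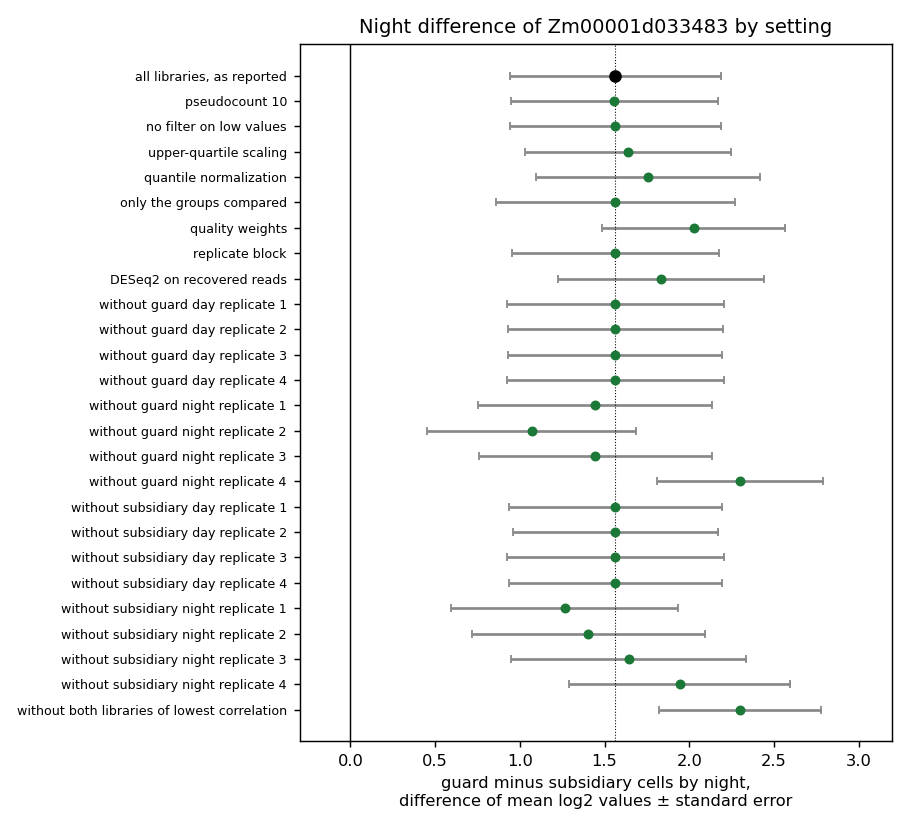
The night difference of the dehydrin, guard minus subsidiary cells in mean log2 value, with its standard error, as reported (black) and under each other setting or with a library left out (green). All values are above 0 and run from 1.07 without guard cells by night replicate 2 to 2.30 without guard cells by night replicate 4; the edgeR fit, which gives no standard error, is not drawn.

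The level in guard cells by day was 2.57 times that in guard cells by night, a log2 difference of 1.80 ± 0.62 (SE). In subsidiary cells the day to night ratio was 0.850, with a log2 difference of -0.22 ± 0.62 (SE), and without replicate 1 of the day the difference was 0.0058. In guard cells the mesophyll markers had a median day minus night difference of 3.09 with 11 of 36 called higher, beside 0.747% of all genes, and the bundle sheath markers 1.98 with 0 of 5 called. In subsidiary cells these medians were 2.44, with 5 of 36 called higher beside 0.673% of all genes, and 0.41 with 0 of 5 called (limma-trend). The part of these markers in the dehydrin's values was not tested, and time, light and temperature cannot be told apart. The guard cell difference between day and night also leaned on replicate 4 of the night. Without it, the ratio was 2.01 and the log2 difference 1.06. The difference of the guard minus subsidiary differences, day minus night, was 2.02 ± 0.88 (SE). All of these use the day libraries and were not tested for this gene. Of the 37759 genes, 0% passed the test of that last contrast in limma-trend, where 2533 had an unadjusted p under 0.05. On recovered reads edgeR called 1 gene (0.00265%) and DESeq2 153 (0.411%). The authors' deposited log2 fold changes are shrunken toward 0 and run subsidiary over guard cells and night over day. There the gene stood at -3.20 by day and at -1.34 by night, with an adjusted p of 0.10 by night (DESeq2). For night over day it stood at -0.78 in guard cells and at 0.08 in subsidiary cells. Adjusted p-values of the comparisons that use day libraries are left out, since the gene was chosen on those libraries.

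Libraries of a group differed more for this gene than for most genes of like level. Its residual SD around the group means was 1.02 in log2 units, against a median of 0.59 over the 867 genes whose mean level lay within 1 log2 unit of its own, which put it at the 84.1th percentile. The log2 SD was 0.40 in guard cells by day and 1.56 in guard cells by night, and in subsidiary cells 0.87 by day, 0.89 by night. Without guard cells by night replicate 4, the log2 SD of that group was 0.65 (n = 3) and the gene's residual SD 0.74, against a median of 0.47 over 782 genes of like level, the 81.5th percentile. Without subsidiary cells by day replicate 1 as well, the residual SD was 0.73, against a median of 0.45 over 636 genes, the 84.0th percentile.

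The other dehydrins of the table overlapped between the groups. They are Zm00001d051420, whose description also begins with Dehydrin, and Zm00001d037894, given as RAB17, a maize dehydrin named for its response to abscisic acid and known from embryos and water-stressed leaves. Zm00001d051420 had 67.4, 100, 230 and 54.2 normalized counts in guard cells by day and 211, 146, 82.9 and 93.5 in guard cells by night, against 58.9, 193, 110 and 148 in daytime subsidiary cells and 120, 113, 139 and 23.9 in those of the night. Its 4 groups overlapped throughout. The differences between guard and subsidiary cells were -0.28 by day (adjusted p = 0.915, limma-trend) and 0.59 by night (adjusted p = 0.876).

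RAB17 had 14.9, 241, 117 and 1663 normalized counts in guard cells by day and 380, 174, 135 and 106 in guard cells by night, against 69.1, 236, 58.2 and 181 in daytime subsidiary cells and 494, 71.2, 98.5 and 259 in those of the night. Its guard cell libraries of the day held both the lowest and the highest value of all 16. Its difference between guard and subsidiary cells was 0.52 by day (adjusted p = 0.894, limma-trend), a direction set by replicate 4 of guard cells by day, without which it was -0.59. By night its difference was 0.01 (adjusted p = 0.999), with its sign turning under other settings. Of these 2 genes 0 were called in any contrast by limma-trend, by edgeR or by DESeq2, and 0 had an unadjusted p under 0.05, against 1.34% of all genes called by day. Across the 16 libraries their log2 values had Pearson correlations of 0.04 (Zm00001d051420) and 0.10 (Zm00001d037894) with those of Zm00001d033483, given as a description.

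**Figure D3:**
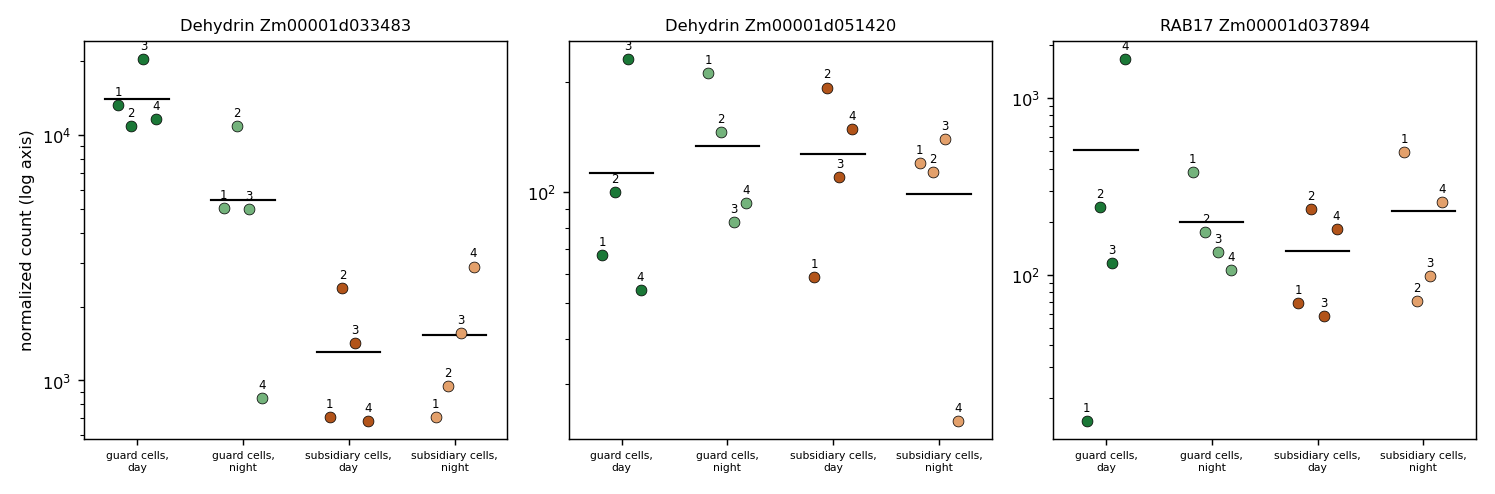
Normalized counts of the 3 dehydrins on log axes with a scale of their own, 1 point per library with its replicate number and a line at each group mean (n = 4). Zm00001d033483 separates guard from subsidiary cells by day, whereas the groups of Zm00001d051420 and of RAB17 overlap, and RAB17 holds 1 library of guard cells by day at 1663 normalized counts.

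Other genes with names tied to water loss were taken from lists matched on first words, 61 genes other than Zm00001d033483. By night 0 of the 61 were called by limma-trend or by edgeR and 1 by DESeq2, which called 1.65% of all genes, and 7 of the 61 had an unadjusted p under 0.05, as did 8.57% of all genes. By day 1 was called, lower in guard cells, which is 1.64% of them, beside 0.395% of all genes called in that direction. Other fits by day called 0 with only the groups compared (1.23% of all genes), 2 with quality weights (2.18%), 0 with edgeR (0.908%), 4 with DESeq2 (4.52%) and 2 without both libraries that stood apart (2.01%). The list of other LEA proteins held 6 genes whose descriptions begin with Late, a word that does not settle what they encode. Of these 6 genes 0 were called in any contrast by limma-trend, edgeR or DESeq2, and 1 had an unadjusted p under 0.05 by night (8.57% of all genes). Their median difference between guard and subsidiary cells was -0.40 by day and 0.25 by night, while the medians of all genes were 0 and -0.003. The most abundant of them, Zm00001d038870 and Zm00001d009943, averaged 77.1 ± 27.1 and 112 ± 186 normalized counts in guard cells by day, against 114 ± 62.6 and 83.9 ± 57.4 in subsidiary cells by day (SD, n = 4 each).

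Osmotic and cold stress genes, 19 in number and mostly of trehalose metabolism, which makes a protective sugar and its signalling precursor, had 0 calls in every contrast by limma-trend over all libraries and by edgeR. By day 1 was called by DESeq2, with quality weights, without guard cells by night replicate 4 (beside 2.16% of all genes) and without both libraries that stood apart. An unadjusted p under 0.05 was found for 1 by day and 2 by night, and for 12.4% and 8.57% of all genes. Their median difference was 0.42 by day and 0.50 by night, with 15 of the 19 above 0 by day and 14 by night. The most abundant was the trehalose gene Zm00001d047110, at 1129 ± 499 normalized counts in guard cells by day and 1366 ± 1050.5 in guard cells by night, against 298 ± 84.9 by day and 519 ± 158 by night in subsidiary cells. Its difference between guard and subsidiary cells was 1.84 by day (adjusted p = 0.112, limma-trend). The next, Zm00001d044854, had differences of -0.46 by day and 0.73 by night.

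The abscisic acid list held 34 genes, tested like the others. In this pathway receptors that bind the hormone block phosphatases of type 2C, which frees SnRK2 kinases to act, although the family of type 2C phosphatases is large and many of its members serve other routes. Among the 5 receptors, whose descriptions begin with Pyrabactin, 0 were called in any contrast (limma-trend), and 1 had an unadjusted p under 0.05 by day (12.4% of all genes). Zm00001d016294 was the most abundant, at 1069 ± 685 normalized counts in guard cells by day and 789 ± 785 in guard cells by night, against 231 ± 91.8 by day and 222 ± 189 by night in subsidiary cells. Its differences were 2.07 by day (adjusted p = 0.333, limma-trend) and 1.77 by night (adjusted p = 0.616). Neither kinase was called. The kinase SnRK2.10, Zm00001d013736, averaged 1723 ± 1501 normalized counts in guard cells by day and 662 ± 436 in guard cells by night, against 324 ± 228 by day and 258 ± 255 by night in subsidiary cells. Its differences were 2.22 by day (adjusted p = 0.349) and 2.13 by night (adjusted p = 0.551). This receptor and this kinase were picked for display after their values had been seen. The other kinase, SnRK2.3 (Zm00001d029975), had differences of -0.002 by day and -0.86 by night. Over the 5 receptors the median difference was 0.25 by day, with 2 below 0, and -0.52 by night, with 3 below 0. Over all 34 genes of the list the median was -0.37 by day and -0.31 by night, with 20 below 0 each time.

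The calls of the list all fell on phosphatases of type 2C. Zm00001d009626 was higher by day than by night in both cell types, at 2884 ± 1027 by day against 279 ± 180 by night in guard cells and at 4245 ± 2317 by day against 406 ± 98.5 by night in subsidiary cells. The log2 differences were 3.65 (adjusted p = 0.00194, limma-trend) in guard cells and 3.18 (adjusted p = 0.00519) in subsidiary cells. Zm00001d014291 was lower by day in subsidiary cells, at 408 ± 187 by day against 2692 ± 1812 by night, a difference of -2.59 (adjusted p = 0.00829). Of all genes, 0.747% were called higher by day in guard cells, and in subsidiary cells 0.673% were called higher and 0.548% lower. DESeq2 called 2 members in guard cells (beside 3% of all genes) and 5 in subsidiary cells (beside 3.6%). Zm00001d037949 was lower by day in guard cells than in subsidiary cells, at 257 ± 371 against 3377 ± 2290, a difference of -5.06 (adjusted p = 0.0223). That call was lost in 7 of 26 other settings, namely edgeR on recovered reads, where the difference was -3.70, the fit of only the groups compared, and without replicate 2 or 4 of guard cells by day or replicate 2, 3 or 4 of subsidiary cells by day, where it ran from -4.99 to -4.21. In subsidiary cells this gene was higher by day, with 69.9 ± 87.9 by night and a difference of 6.03 (adjusted p = 0.00611). The dehydrin itself had a subsidiary cell difference of -0.22 between day and night. By limma-trend 0 of the 18 phosphatases were called higher in guard than in subsidiary cells, by day or by night. Of all genes, 1.34% were called by day and 0.0291% by night, in either direction.

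Genes whose levels went most closely with the dehydrin's across the 16 libraries were found by Pearson correlation of log2 values over the 35934 genes with a mean log2 value of at least 3. The libraries share the 4 groups, so part of any likeness comes from the groups themselves, and no p is attached. The median correlation over those genes was -0.01, and 21 genes were above 0.9. The closest was Zm00001d042336, a glycosyltransferase, a class of enzymes that attach sugars to other molecules, with r = 0.95. Then came Zm00001d029846 with r = 0.95, Zm00001d021775 with r = 0.94 and GRMZM5G851130 with r = 0.94, none with a description, and Zm00001d051684, given as C2C2-CO-like, the CONSTANS-like family of transcription factors, with r = 0.93. With any 1 library left out, or both of the libraries that stood apart, these 5 correlations stayed between 0.92 and 0.98, and each of the 5 genes remained among the 9 closest.

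The glycosyltransferase Zm00001d042336 averaged 801 ± 92.5 normalized counts in guard cells by day and 405 ± 168 in guard cells by night, against 97.2 ± 24.7 by day and 137 ± 126 by night in subsidiary cells (SD, n = 4 each). Like the dehydrin it was lowest among guard cells in replicate 4 of the night, at 157, and highest among subsidiary cells of the night in replicate 4, at 321. The CONSTANS-like gene Zm00001d051684 averaged 8193 ± 1998 in guard cells by day and 3403 ± 1810 in guard cells by night, against 992 ± 389 by day and 871 ± 219 by night in subsidiary cells. Zm00001d021775 had the widest range of the 5, with 7190 ± 2922 in guard cells by day and 1564 ± 1666 in guard cells by night, against 293 ± 294 by day and 185 ± 98.5 by night in subsidiary cells. Among genes with a description, the next were Zm00001d010193 (Gibberellin-regulated, r = 0.92), Zm00001d002542 (Orphans, r = 0.90) and Zm00001d047452 (Putative, r = 0.90).

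**Figure D4:**
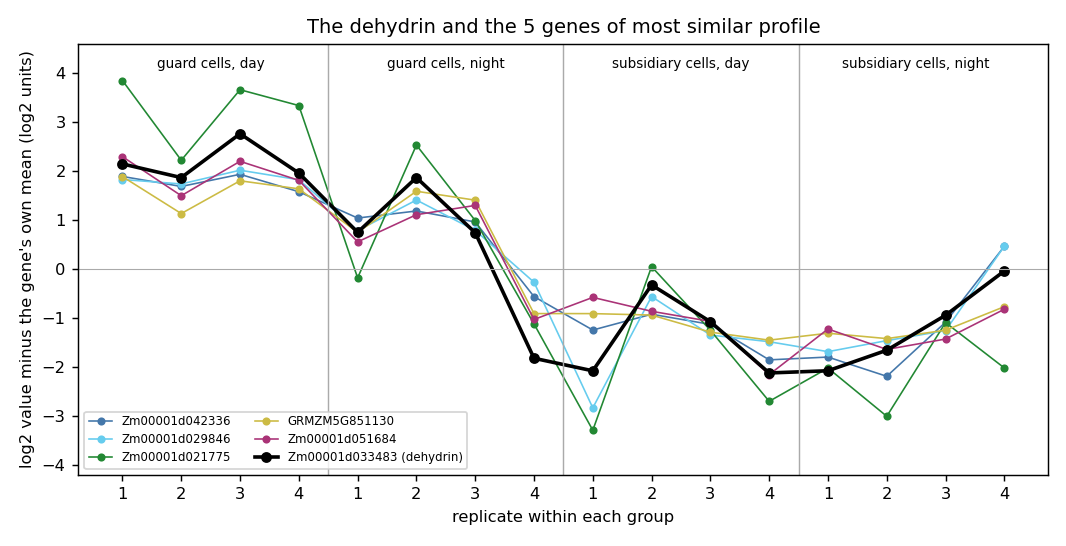
Log2 value of the dehydrin (black) and of the 5 genes with the most similar profile (colours) in each of the 16 libraries, each gene minus its own mean over all libraries, in log2 units. All 6 are high in the guard cell libraries of the day, drop at guard cells by night replicate 4 and lie mostly below their own mean in subsidiary cells.

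Within groups the genes closest to the dehydrin were others, although those closest over all libraries also went with it there. For this, the mean of its own group was taken from each library's log2 value. Only differences among libraries of 1 group were then left. By this measure Zm00001d042336, Zm00001d029846, Zm00001d021775, GRMZM5G851130 and Zm00001d051684 had correlations of 0.84, 0.83, 0.78, 0.83 and 0.74. The median over the genes compared was -0.00087. The closest gene was then Zm00001d023529, whose description begins with Abscisic, with r = 0.93, and it was the only gene of the 35934 above 0.9, while its r over the undivided values was 0.04. Its average level was unlike the dehydrin's, at 6068 ± 1837 normalized counts in guard cells by day and 5870 ± 5026 in guard cells by night, against 16312 ± 9054 by day and 11382 ± 5213 by night in subsidiary cells. In guard cells by night it was at 6322, 12517, 4079 and 560, and in subsidiary cells by night at 5079, 9141, 15283 and 16026. In both groups the library with its highest value was also the highest for the dehydrin, and so was the library with its lowest.

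The table holds 1 other gene whose description begins with that word, Zm00001d004843, chosen here after its values were seen, and its correlation within groups was 0.87, rank 13 of all genes. Both correlations were helped by guard cells by night replicate 4, the library farthest from its group mean for the dehydrin. Without that library they were 0.85 (rank 9) for Zm00001d023529 and 0.71 (rank 138) for Zm00001d004843. Without subsidiary cells by day replicate 1 as well, they were 0.86 (rank 11) and 0.67 (rank 298). The remaining genes named after abscisic acid did not share this likeness. Over 16 libraries their correlations within groups were -0.48 (Zm00001d039240), -0.38 (Zm00001d012296), 0.32 (Zm00001d023664) and 0.53 (Zm00001d005107). The other 4 genes closest within groups, Zm00001d015817, Zm00001d015404, Zm00001d028241 (3-ketoacyl-CoA, a word of wax synthesis enzymes) and Zm00001d027983, had correlations of 0.89 to 0.90, and 0 of the 5 remained among the 5 closest without both libraries. The first word does not say what the Abscisic genes encode, and neither was called between guard and subsidiary cells by night (adjusted p = 0.581 for Zm00001d023529 and 0.533 for Zm00001d004843, limma-trend).

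**Figure D5:**
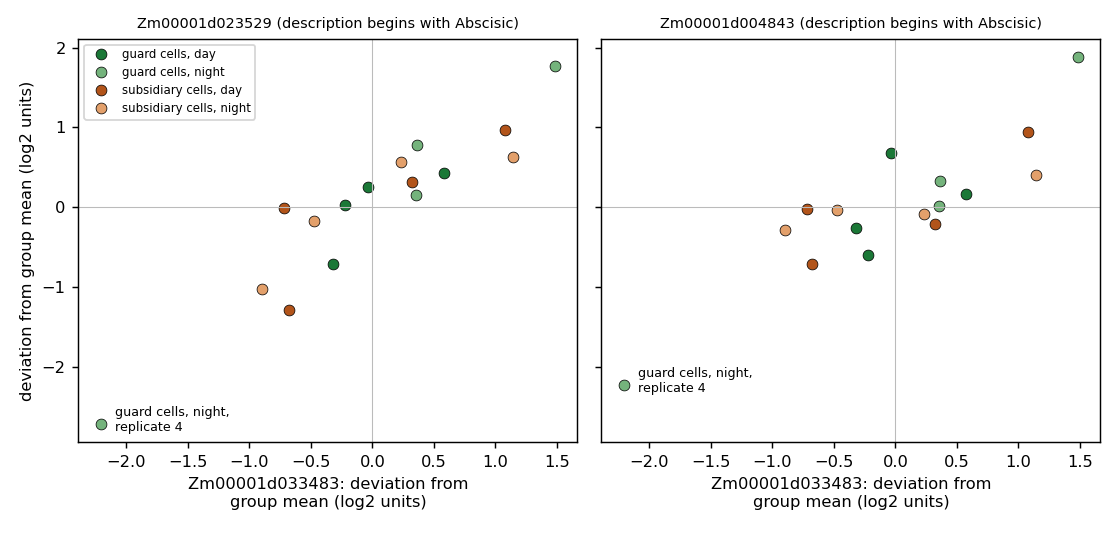
Deviation of each library from the mean of its group, in log2 units, for the dehydrin (x axis) and for the 2 genes whose description begins with Abscisic (y axes), 1 point per library, coloured by group. The correlation is 0.93 for Zm00001d023529 and 0.87 for Zm00001d004843 over 16 libraries, and guard cells by night replicate 4 lies farthest from the rest at the lower left of both.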

How the data were processed

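Per the labels' protocols, cDNA was made from about 10 pg of RNA by SMART-Seq v4, and Nextera XT libraries were prepared from 150 ng of it. Strand is not kept and there are no molecular identifiers, so several reads may come from 1 molecule. The deposited signal values are normalized counts, per the file headers: the authors scaled the counts of each library by a single size factor. Whole reads were recovered in 100% of the values checked per library (tolerance 0.01), with size factors of 0.730 to 1.46. The check left out the largest values, most of the dehydrin's guard cell values among them. The deposited score columns (log2 fold change, its standard error and p-values) come from the authors' DESeq2 1.40.2 run, per the submitters' processing notes, which name the build B73 RefGen_v4, while the plants were B104. For aligner and counter: not given in the sources used here. In 62 lines a field beyond the 35 named columns was filled, and all lines were read at the same column positions.

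Log2(normalized count + 1) values were tested by limma-trend, 4 group means over 16 libraries (12 residual degrees of freedom), Benjamini-Hochberg adjustment over the genes tested and a threshold of 0.05, with R 4.3.3, limma 3.58.1, edgeR 4.0.16, DESeq2 1.42.0 and scipy 1.17.1. Differences are on that log2 scale. The limma-trend fit was tested on simulated counts for the night comparison, drawn with the same relative spread for every gene. The planned edgeR branch became an alternative, since the values are normalized. The gene and the lists were chosen with earlier results of these data known, and the lists were rebuilt on first words after the table had been seen. Genes named by rule were the dehydrins, the 5 genes most like Zm00001d033483 by each of 3 measures, up to 4 called members per list and contrast, and the 2 most abundant members of lists with no call. Further genes of the abscisic acid list were named outside this rule and were not screened for outlying libraries. The collections were independent, so the p-values reflect differences among collections and in how each was prepared. No pairing by replicate number was detected: 0 of 24 pairs of same-numbered libraries correlated over 0.1 in their deviations from the group means. Whether same-numbered libraries shared a collection cannot be settled from these correlations. Alternatives were another pseudocount, no filter, other scalings, only the groups compared, quality weights, a replicate block, each library left out, edgeR and DESeq2 on recovered reads, and, added after seeing the data, both libraries of lowest correlation left out.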

Additional observations from a re-analysis of the deposited data

Results flagged for a closer look

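Outlying libraries were sought in 23 of the genes named in the text and 4 groups each, on normalized counts rather than log2 values. In 8 of 92 gene and group pairs a library's gap to the nearest of the other 3 exceeded Dixon's limit for 4 values. The dehydrin Zm00001d033483 was not among these pairs. Normally distributed values pass that limit in about 1 in 20 groups, but normalized counts need not be so distributed. No excess over chance is therefore read from the 8 pairs. RAB17 (Zm00001d037894) was at 1663 normalized counts in guard cells by day replicate 4, against 14.9 to 241 in the others. Zm00001d029846, close to the dehydrin in profile, was at 2490 in subsidiary cells by night replicate 4, the library where the dehydrin was also highest of its group, against 558 to 753 in the others. Zm00001d027983 was at 137 in guard cells by day replicate 1, against 87.7 to 95.3.

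The phosphatase Zm00001d037949 was at 244 in guard cells by night replicate 2, against 116 to 127, and at 200.4 in subsidiary cells by night replicate 4, against 9.67 to 38.9. Zm00001d038870, whose description begins with Late, was at 118 in guard cells by day replicate 3, against 59.4 to 67.1. It was at 207 in subsidiary cells by day replicate 2, against 75.4 to 94.0. Zm00001d009943, also described with the first word Late, was at 390 in guard cells by day replicate 2, against 0.87 to 34.4. The cause of these values was not tested.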

How the results depend on the processing

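The night difference of Zm00001d033483 stayed above 0 in all 26 other settings, with 1.07 to 2.30 when 1 library was left out, and it passed the threshold only without both libraries of lowest correlation (2.30). Its adjusted p ran from 0.0577 to 0.706 with 1 library left out and from 0.0438 to 0.533 in the other settings. The untested differences ranged, with 1 library left out, over 3.34 to 3.94 by day, 1.06 to 2.29 between day and night in guard cells, -0.58 to 0.16 in subsidiary cells and 1.28 to 2.52 for the difference of differences. With the replicate block the night difference was 1.56 (adjusted p = 0.451, limma-trend), and 5 of 16 libraries correlated best with their own number. Upper-quartile scaling moved the median of all genes by -0.11 between day and night in guard cells and by -0.14 in the difference of differences. Members of the lists called by day numbered 1, but 0 with only the groups compared, 2 with quality weights, 0 in edgeR, 4 in DESeq2, 2 without both libraries and 0 to 2 with 1 library left out. DESeq2 called 1 by night in place of 0, 2 in place of 1 between day and night in guard cells, and 5 in place of 3 in subsidiary cells. By Spearman correlation 3 of the 5 most similar genes, 2 of the 5 with a description and 2 of the 5 within groups stayed; with 1 library left out the counts were 2 to 5, 3 to 5 and 0 to 4. Without both libraries 0 of the 5 within groups stayed. RAB17 by night turned to -0.0083 with quality weights, -0.20 in edgeR and -0.22 in DESeq2, and ran from -0.41 to 0.52 with 1 library left out; by day it was -0.26 with quality weights and -0.59 to 1.65 with 1 left out. The causes were not tested. Both the number of libraries and the unknown number of molecules behind the reads limit these values.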
